A study of Mus musculus with 6 samples.

Results

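RNA sequencing of cortical bone from mouse tibiae was read out for 53 genes of the BMP, activin and TGF-beta signalling pathways: 17 ligands, 13 receptors, 8 Smads, 7 secreted antagonists and binding proteins, 4 latent TGF-beta binding proteins and 4 Id genes. The members were taken by gene symbol from the 25721 genes of the authors' comparison of the diets, and 51 of them had enough reads to be tested among 15609 tested genes. Every animal carried the genotype label Wildtype. Mice were assigned at 8 weeks of age to a control diet or to a diet with 0.2% adenine by weight, which injures the renal tubules and is in use as a chronic kidney disease model. The diets were fed for 4 weeks and bones were taken at 12 weeks. Tibiae were cleaned of connective tissue and frozen, and later their ends were cut off, the marrow was flushed out and the cortex was pulverised. There were 3 libraries per diet, called control 1 to 3 and adenine 1 to 3 after their label numbers. The labels do not state whether each library came from its own mouse, so p-values measure the spread between these libraries, which may in part be technical.

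Ligands of the TGF-beta superfamily bind pairs of type I and type II serine/threonine kinase receptors, which phosphorylate receptor Smads that enter the nucleus with the common partner Smad4. BMP signals pass mainly through Smad1, Smad5 and Smad9 and induce Id genes, while TGF-beta and activin signals pass through Smad2 and Smad3. In bone, TGF-beta is stored in the matrix in a latent form and released during resorption, BMPs drive osteoblast differentiation, and secreted antagonists such as noggin and gremlin keep BMPs from their receptors.

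Of the members, 4 were called lower on the adenine diet in the authors' deposited table, and none higher: Grem1, a secreted BMP antagonist, Gdf10, a ligand related to BMP3, Ltbp4, a matrix protein that holds latent TGF-beta, and Chrdl1, a chordin-like BMP antagonist. Values are given as CPM, the read count of a gene scaled to library size, and the fold differences fitted by edgeR for these 4, control over adenine, were between 3.10 and 8.46. The genes named next had an unadjusted p under 0.05 in edgeR's quasi-likelihood test, and none of them passed the adjusted threshold. Tgfb2, Tgfb3, Bmp2, Acvrl1, Ltbp2 and Id4 had lower values on the adenine diet, and Tgfbr1, the type I TGF-beta receptor, and Inhbb, the beta B subunit of activin, had higher values. The 8 Smads had log2 fold changes of both signs, from -0.60 to 0.31, with a median of 0.03.

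The promoters of the 3 members with the largest differences and of Id3, the member with the highest level per length, are shown as the 250 bases before the start of each gene in the RefSeq annotation of GRCm38.p6, read 5′ to 3′ on the gene's strand. Id3 is a textbook BMP target; the other 3 were chosen after their values were seen. Capitals mark matches on either strand to 4 motifs known from work on Smad binding, and matches can overlap each other. They are GGCGCC, described for the BMP Smads, the palindrome GTCTAGAC, described for Smad3 and Smad4, the word CAGACA, which holds the shorter Smad box, and the GC-rich word GCCGNC.
Grem1, chr2:113758649-113758898, minus strand: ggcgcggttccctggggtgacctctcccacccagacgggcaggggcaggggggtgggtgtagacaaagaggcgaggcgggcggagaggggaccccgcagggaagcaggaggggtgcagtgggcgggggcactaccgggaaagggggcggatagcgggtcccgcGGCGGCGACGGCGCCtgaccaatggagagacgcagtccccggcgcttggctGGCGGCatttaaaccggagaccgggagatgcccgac
Gdf10, chr14:33923337-33923586, plus strand: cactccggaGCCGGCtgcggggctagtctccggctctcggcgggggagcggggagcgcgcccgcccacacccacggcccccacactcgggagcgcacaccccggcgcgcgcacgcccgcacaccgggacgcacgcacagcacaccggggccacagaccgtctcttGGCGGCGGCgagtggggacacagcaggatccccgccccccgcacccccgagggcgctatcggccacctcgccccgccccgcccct
Ltbp4, chr7:27337613-27337862, minus strand: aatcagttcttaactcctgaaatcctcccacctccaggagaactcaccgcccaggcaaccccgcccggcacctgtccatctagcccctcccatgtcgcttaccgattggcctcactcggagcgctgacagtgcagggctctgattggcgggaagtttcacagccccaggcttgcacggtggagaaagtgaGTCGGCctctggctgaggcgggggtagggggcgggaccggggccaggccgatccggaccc
Id3, chr4:136143572-136143821, plus strand: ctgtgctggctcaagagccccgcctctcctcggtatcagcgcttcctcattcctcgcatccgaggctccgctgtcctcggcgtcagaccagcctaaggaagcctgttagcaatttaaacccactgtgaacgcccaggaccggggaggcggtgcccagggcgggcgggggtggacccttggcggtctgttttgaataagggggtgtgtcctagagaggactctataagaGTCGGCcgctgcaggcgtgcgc
Grem1 held 1 GGCGCC and 3 GCCGNC, where the GGCGCC overlapped a GCCGNC match. Gdf10 held 3 GCCGNC, and Ltbp4 and Id3 held 1 each. The stretches of Id2, Id4 and Smad6 were scanned too and are not printed. Id2 held 1 GGCGCC and 0 GCCGNC, Id4 held 1 and 2, and Smad6 held 0 and 2. The Ltbp4 stretch is that of the farthest upstream of 3 listed starts; the stretches before the other starts, which overlap each other, held 1 GGCGCC and 2 GCCGNC each. Over the 32851 promoters of this length in the reference, 9.59% held GGCGCC, 0.167% held GTCTAGAC, 17.1% held CAGACA and 27.4% held GCCGNC. GC content was 72.0% for Grem1, 78.8% for Gdf10, 64.4% for Ltbp4 and 62.8% for Id3, and GCCGNC is itself a GC-rich word. A match describes letters in this window and does not show binding. A promoter was at hand for 37 of the 53 members.

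Total counts per library were between 9977694 and 14598010. Over 15609 tested genes, edgeR's quasi-likelihood test called 0 genes at an adjusted p under 0.05 (0% of genes, smallest adjusted p = 0.169), while 1671 genes had an unadjusted p under 0.05 and the authors' deposited table calls 361. The markers of bone cells were present in each library, with Col1a1, the main collagen of bone, at 5502 to 14838 CPM. Sost, the osteocyte product sclerostin, was at 108 and 135 CPM in control 1 and control 2 but at 6.61 CPM in control 3. Markers of other tissues were uneven: summed skeletal muscle markers were 57768, 21409 and 92475 CPM in control 1 to 3 and 3206, 80730 and 6655 CPM in adenine 1 to 3, and summed kidney tubule markers were 267, 73.8 and 56.4 CPM against 2074, 856 and 115 CPM. Control 3 had low Sost and the highest muscle markers, and adenine 1 had the highest kidney markers. In muscle markers adenine 2 was apart from the other adenine libraries, while adenine 1 and adenine 3 were both low. The counts of members are given with all libraries, without control 3 and adenine 1 together, and without adenine 2.

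Of the 51 tested members, 38 had a negative and 13 a positive log2 fold change, so that 74.5% were on the lower side against 50% of all tested genes. Their median log2 fold change was -0.44, where that of all tested genes was near 0 (-3.85e-07). At an unadjusted p under 0.05, 10 members were lower on the adenine diet, which is 19.6% of the tested members against 6.49% of all genes. In the other direction there were 2, or 3.92% against 4.22% of all genes. The adjusted threshold was passed by 0 members in edgeR's test. In the authors' deposited table, 4 members were called lower, 7.84% against 1.29% of its 18691 genes with an adjusted p, and 0 were called higher against 0.642%. For 14 members every adenine library lay below every control library, 27.5% of the tested members against 8.86% of all genes, and for 3 members every adenine library lay above, 5.88% against 7.68%. Without adenine 2, the member counts at an unadjusted p under 0.05 were 16 lower and 3 higher, and edgeR called 334 genes, 5 of them members; without adenine 3 the higher count was 1. Without control 3 and adenine 1 together, 6 members were lower and the median was -0.17. Control 3 was the highest library for 26 of the 51 members and adenine 1 the lowest for 21, so that fit leaves out the extremes of the set on both sides. The shares of all genes in these smaller fits are not given here. The member counts of those fits therefore have no background beside them, and the shares above belong to the fit of all libraries.

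**Figure D1:**
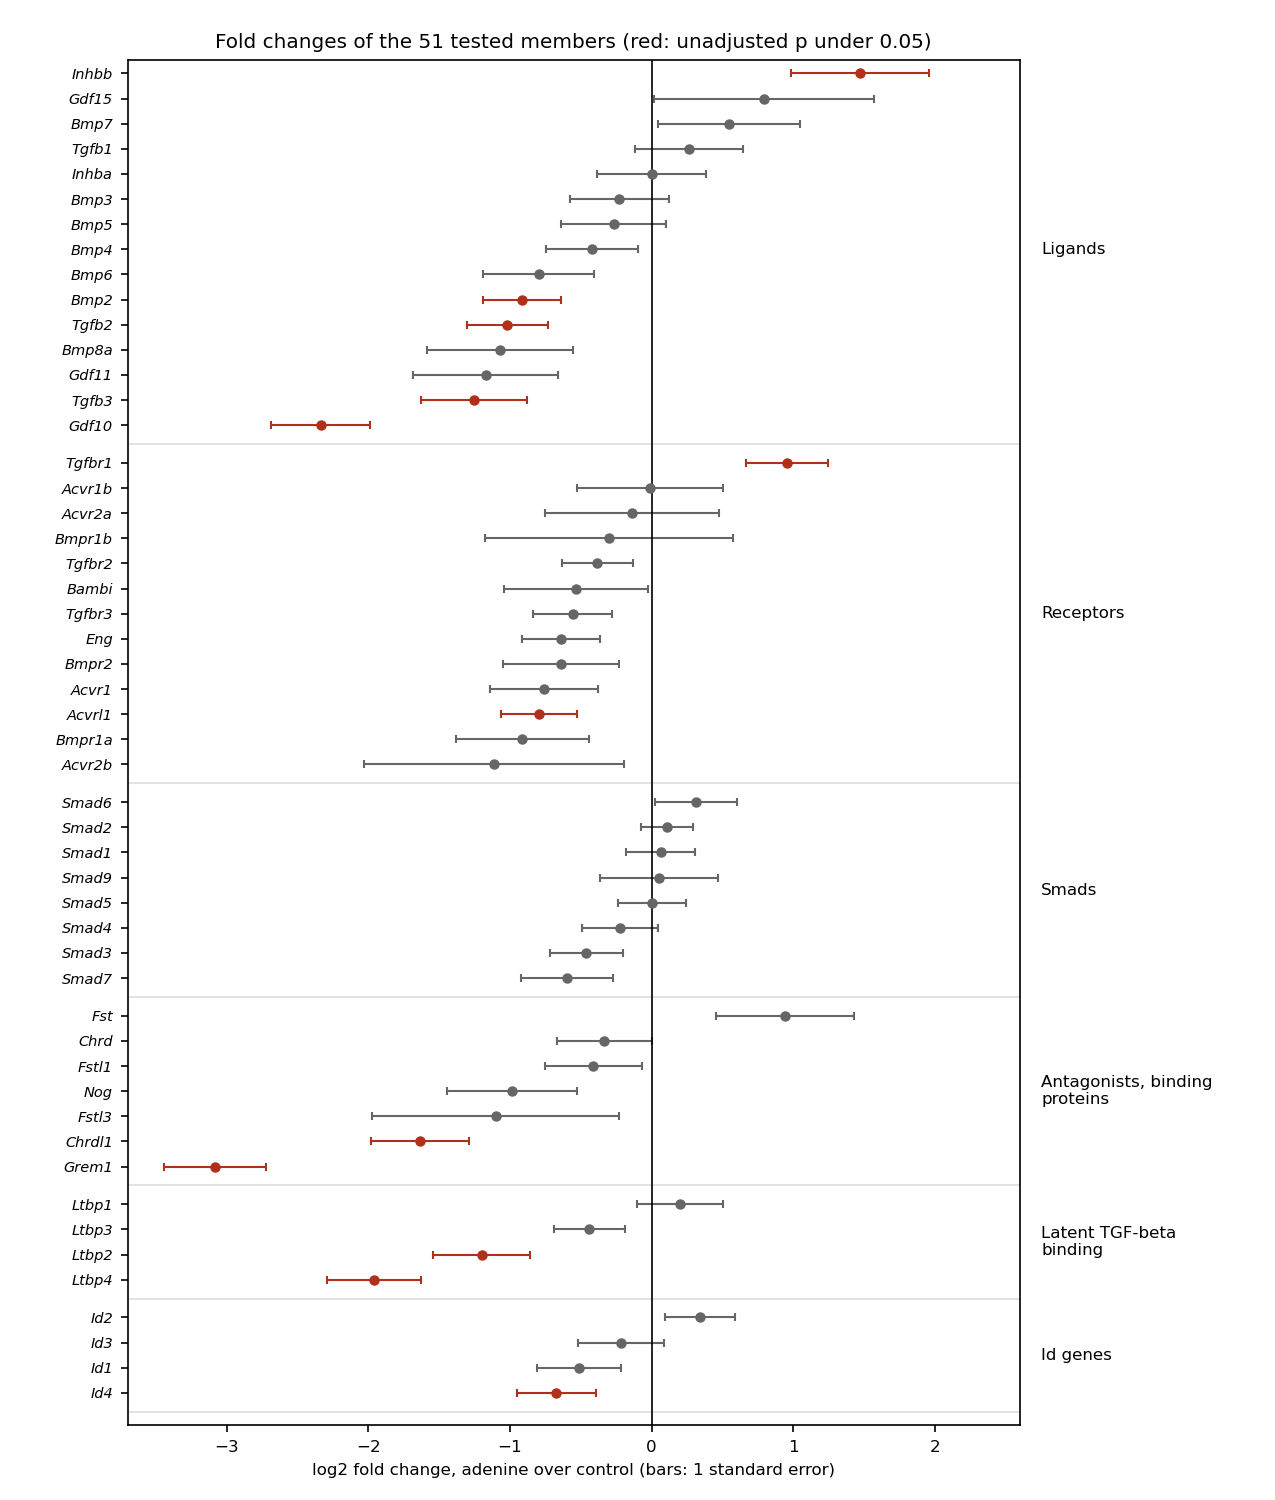
Log2 fold change of the 51 tested members, adenine over control, grouped by role. Points are edgeR estimates and bars 1 standard error; red marks an unadjusted p under 0.05. The points run from -3.08 for Grem1 to 1.47 for Inhbb, and 12 are red.

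Among the ligands, 15 of 17 were tested, with a median log2 fold change of -0.42; 4 were lower and 1 was higher at an unadjusted p under 0.05. Gdf10 (ENSMUSG00000021943, chromosome 14, 33645544 to 33659940 in the files' coordinates) was at 32.5, 43.0 and 41.9 CPM in control 1 to 3 and at 4.34, 8.92 and 9.91 CPM in adenine 1 to 3. The groups lay far apart, and the lowest control library was above 3 times the highest adenine library. Its log2 fold change was -2.34 ± 0.35 (± after a log2 fold change is 1 standard error; edgeR adjusted p = 0.169), and the authors' deposited table gives -2.34 with an adjusted p of 1.82e-05. With each library left out in turn, the value ran from -2.56 to -2.05.

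The 3 TGF-beta ligands did not share a direction. Tgfb3 was at 86.1, 67.4 and 111 CPM on the control diet and at 23.0, 57.3 and 30.9 CPM on the adenine diet, a log2 fold change of -1.25 ± 0.37 (edgeR adjusted p = 0.339). Adenine 2 came close to control 2, and the groups did not overlap. Tgfb2 was at 34.8, 33.5 and 31.4 CPM against 11.0, 21.9 and 16.3 CPM, a log2 fold change of -1.02 ± 0.29 (edgeR adjusted p = 0.304). Its control libraries were close together, at 33.2 ± 1.74 CPM (SD, n = 3), and each adenine library was lower. Tgfb1, with the highest mean FPKM of the 3, was at 70.4, 132 and 64.2 CPM against 108, 67.7 and 144 CPM, a log2 fold change of 0.26 ± 0.38 (edgeR adjusted p = 0.791). These groups overlapped, with control 2 and adenine 2 on the far side of their groups, and without adenine 3 the sign turned, at -0.02.

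As a description of level per length, the share of Tgfb1 in the summed FPKM (fragments per kilobase of gene and per library size) of the 3 TGF-beta genes was 30.8%, 50.5% and 24.9% in control 1 to 3 and 71.1%, 39.3% and 70.6% in adenine 1 to 3. The share of Tgfb3 was 56.0%, 38.4% and 64.5% against 22.6%, 49.6% and 22.5%. Tgfb3 led in control 1, control 3 and adenine 2, and Tgfb1 in control 2, adenine 1 and adenine 3, so the groups overlapped through control 2 and adenine 2.

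Bmp2, which induces osteoblast differentiation, was at 19.3, 18.05 and 27.3 CPM on the control diet and at 13.6, 10.5 and 10.2 CPM on the adenine diet. Every adenine library was lower than every control library, with a log2 fold change of -0.92 ± 0.27 (edgeR adjusted p = 0.340). Bmp4, a closely related ligand, was at 15.6, 9.77 and 10.2 CPM against 10.6, 8.71 and 7.21 CPM, where the groups overlapped (log2 fold change -0.42 ± 0.32, edgeR adjusted p = 0.633). Inhbb was at 11.6, 3.96 and 13.5 CPM against 21.8, 20.3 and 38.7 CPM, with a log2 fold change of 1.47 ± 0.49 (edgeR adjusted p = 0.377). All adenine libraries were above all control libraries, adenine 3 most of all and control 2 least. Inhba, the beta A subunit of activin, was at 5.66, 13.7 and 10.3 CPM against 9.80, 8.29 and 11.5 CPM; the adenine libraries lay inside the control range (log2 fold change -0.0005 ± 0.39, edgeR adjusted p = 1.00).

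The other tested ligands, Bmp3, Bmp5, Bmp6, Bmp7, Bmp8a, Gdf11 and Gdf15, had log2 fold changes of -1.17 to 0.79 with standard errors of 0.35 to 0.78 and edgeR adjusted p of 0.474 to 0.802. Of these, Bmp6 was lower in every adenine library than in every control library, though adenine 2 at 19.84 CPM nearly reached control 2 at 19.99 CPM. Bmp8a has a near-identical neighbour, Bmp8b, and reads of the copies may have been split or dropped in counting. Gdf5 and Gdf6, ligands of joint formation, were too low to test: Gdf5 had 9 reads in control 3 and 0 in each other library, and Gdf6 had 5, 0 and 5 reads on the control diet and 0, 6 and 0 on the adenine diet.

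**Figure D2:**
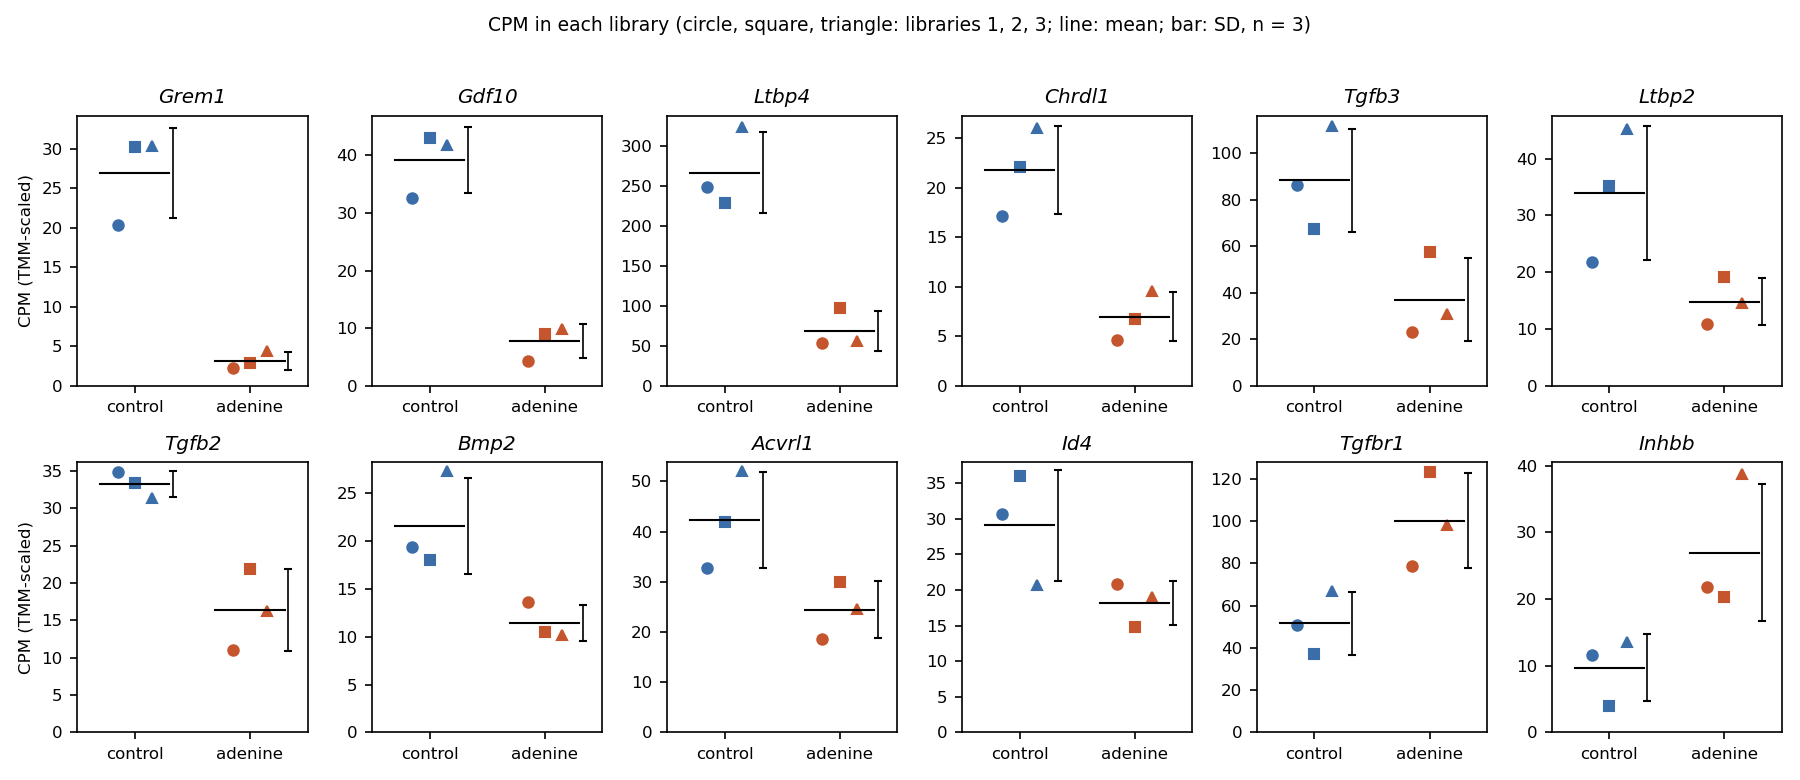
CPM of the 12 members with an unadjusted p under 0.05, in each library (circle, square and triangle for libraries 1, 2 and 3; blue for control, orange for adenine; line, mean; bar, SD, n = 3). Groups do not overlap except for Id4, where control 3 at 20.7 CPM lies below adenine 1 at 20.8 CPM.

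Among the 13 receptors, 12 had a negative log2 fold change, with a median of -0.56, and 1 had a positive one; at an unadjusted p under 0.05 there was 1 lower and 1 higher. Tgfbr1, the type I receptor for TGF-beta, was at 50.7, 37.2 and 66.7 CPM on the control diet and at 78.7, 123 and 98.2 CPM on the adenine diet. The groups did not overlap, and adenine 2 was the highest library. The log2 fold change was 0.96 ± 0.29 (edgeR adjusted p = 0.343), and it was 0.77 to 1.19 with each library left out. Tgfbr2, its type II partner, was not higher with it, at 115 to 140 CPM against 74.9 to 121 CPM.

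Acvrl1 and endoglin (Eng) form the receptor complex by which endothelial cells respond to BMP9. Acvrl1 was at 32.8, 42.0 and 52.1 CPM against 18.7, 30.03 and 24.5 CPM, with every adenine library lower (log2 fold change -0.79 ± 0.27, edgeR adjusted p = 0.393). Eng was at 121, 101 and 154 CPM against 70.5, 105 and 66.3 CPM (log2 fold change -0.64 ± 0.28, edgeR adjusted p = 0.473). Adenine 2 lay above control 2 in this gene, so the groups overlapped. Endothelial markers were lower beside them: 12 of 12 had a negative log2 fold change, 10 at an unadjusted p under 0.05, with a median of -1.06, and their summed level was 1308 to 1466 CPM in the control and 594 to 863 CPM in the adenine libraries. None of these markers was at 0. Their part in the values of Acvrl1 and Eng was not tested, and in bulk tissue fewer cells of a type and less RNA per cell cannot be told apart.

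The other receptors, Tgfbr2, Tgfbr3, Bmpr1a, Bmpr1b, Bmpr2, Acvr1, Acvr1b, Acvr2a, Acvr2b and the decoy receptor Bambi, had log2 fold changes of -1.11 to -0.02 with standard errors of 0.25 to 0.92 and edgeR adjusted p of 0.514 to 0.991. Several of them shared a pattern across the adenine libraries, and the examples given here were chosen after their values were seen. Bmpr1a, a type I BMP receptor, was at 81.5, 50.1 and 120 CPM in control 1 to 3 and at 25.05, 73.6 and 35.0 CPM in adenine 1 to 3. Acvr1b, a type I activin receptor, was at 38.0, 29.3 and 49.3 CPM against 21.7, 73.5 and 20.4 CPM. Gdf11, a ligand related to myostatin, was at 49.2, 32.8 and 47.9 CPM against 10.7, 36.6 and 10.4 CPM. In each of these, adenine 2 lay inside or above the control range and adenine 1 and adenine 3 below it. Adenine 2 was also the adenine library with skeletal muscle markers at the level of the controls (80730 CPM against 3206 and 6655 CPM); the part of muscle RNA in these genes was not tested.

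The 8 Smads had 5 positive and 3 negative log2 fold changes from -0.60 to 0.31, with none at an unadjusted p under 0.05. Smad4, the common partner and the Smad with the highest FPKM, was at 55.9, 48.3 and 77.8 CPM on the control diet and at 42.1, 65.2 and 48.6 CPM on the adenine diet. The groups overlapped, with a log2 fold change of -0.22 ± 0.27 (edgeR adjusted p = 0.746). The inhibitory Smads, which are induced by the pathway and feed back on it, lay on opposite sides. Smad6 was at 21.9, 16.5 and 19.9 CPM against 24.4, 16.6 and 31.5 CPM (log2 fold change 0.31 ± 0.29, edgeR adjusted p = 0.679). Smad7 was at 36.8, 17.7 and 36.2 CPM against 16.8, 23.8 and 19.3 CPM (log2 fold change -0.60 ± 0.33, edgeR adjusted p = 0.544). Both pairs of groups overlapped, in Smad7 through the low control 2. Smad1, Smad2, Smad3, Smad5 and Smad9, which carry the signal from the receptors, had log2 fold changes of -0.46 to 0.11 with standard errors of 0.19 to 0.42. The groups did not overlap for Smad3, at 44.6 to 72.2 CPM against 33.4 to 43.0 CPM (log2 fold change -0.46), nor, in the other direction, for Smad2, at 27.8 to 31.4 CPM against 31.8 to 32.2 CPM (log2 fold change 0.11).

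The secreted antagonists and binding proteins had the lowest median of the roles, at -0.98 over 7 members, with 6 negative and 1 positive; 2 were lower at an unadjusted p under 0.05. Grem1 (ENSMUSG00000074934, chromosome 2, 113576509 to 113588991 in the files' coordinates), whose promoter is printed above, was at 20.4, 30.2 and 30.3 CPM on the control diet and at 2.22, 2.83 and 4.43 CPM on the adenine diet. The means were 27.0 ± 5.72 and 3.16 ± 1.14 CPM (SD, n = 3 each), with a fitted fold difference of 8.46, and the adenine libraries were close together at the low level. Its log2 fold change of -3.08 ± 0.36 had the smallest p of the members (edgeR adjusted p = 0.169); the authors' deposited table gives -3.08 with an adjusted p of 9.21e-09. Left-out libraries moved it between -3.42 and -2.88.

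Chrdl1 (ENSMUSG00000031283, chromosome X, 142068670 to 142177258 in the files' coordinates) was at 17.1, 22.1 and 26.0 CPM against 4.62, 6.72 and 9.61 CPM. The groups did not overlap, with a log2 fold change of -1.63 ± 0.35 (edgeR adjusted p = 0.206), and the authors' deposited table gives -1.63 with an adjusted p of 0.0150. Noggin (Nog), which sequesters BMP2 and BMP4, was at 6.52, 6.78 and 14.6 CPM against 3.14, 5.14 and 5.78 CPM. Each adenine library was below each control library, although control 3 set much of the difference: the log2 fold change was -0.98 ± 0.46 (edgeR adjusted p = 0.495), and -0.50 without control 3. Fstl1, a follistatin-like glycoprotein and the member of this group with the highest FPKM, was at 192, 167 and 238 CPM against 123, 105 and 221 CPM, where the groups overlapped through adenine 3 (log2 fold change -0.41 ± 0.34, edgeR adjusted p = 0.657). Chrd, Fst and Fstl3 had log2 fold changes of -1.10 to 0.94 with edgeR adjusted p of 0.528 to 0.702, and the positive one was Fst, follistatin, which binds activins.

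Markers of connective tissue, nerve and fat were lower beside these antagonists. Of 12 tested periosteal and tendon fibroblast markers, 7 were lower and 0 higher at an unadjusted p under 0.05, with a median log2 fold change of -1.58 and a summed level of 1185 to 2571 CPM in the control and 717 to 1195 CPM in the adenine libraries, ranges that overlap. Schwann cell and nerve markers had 8 of 8 lower at that threshold, a median of -2.19 and summed levels of 322 to 813 CPM against 93.9 to 134 CPM. Adipocyte markers had 4 of 7 lower and a median of -1.59, at 626 to 1095 CPM against 275 to 588 CPM. Of these markers, Lep, the adipocyte hormone leptin, was at 0 in some libraries and too low to test. Marrow stromal markers differed less, with 1 of 7 lower and 0 higher at that threshold and a median of -0.26. Their summed levels were 654 to 799 CPM against 478 to 790 CPM, ranges that overlap. Which cells carried Grem1, Gdf10 and Chrdl1 RNA was not tested.

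The latent TGF-beta binding proteins anchor TGF-beta in the extracellular matrix. Ltbp4 (ENSMUSG00000040488, chromosome 7, 27004561 to 27037117 in the files' coordinates) had the highest FPKM of the 4 and was at 248, 229 and 324 CPM on the control diet and at 53.3, 96.9 and 55.6 CPM on the adenine diet. The groups lay apart, at 267 ± 50.5 and 68.6 ± 24.5 CPM (SD, n = 3 each), with adenine 2 the nearest to the controls. Its log2 fold change was -1.96 ± 0.33 (edgeR adjusted p = 0.180), and the authors' deposited table gives -1.96 with an adjusted p of 3.72e-05. With each library left out it was -2.30 to -1.79. Ltbp2, which does not bind latent TGF-beta itself but is built like the others and belongs to elastic microfibrils, was at 21.7, 35.1 and 45.2 CPM against 10.8, 19.1 and 14.5 CPM, with every adenine library lower (log2 fold change -1.20 ± 0.34, edgeR adjusted p = 0.318). Ltbp1 and Ltbp3 had log2 fold changes of 0.20 and -0.44 with edgeR adjusted p of 0.798 and 0.559. The markers of vascular smooth muscle cells and pericytes, which lie in elastic vessel walls, were lower beside Ltbp4 and Ltbp2: 10 of 10 were negative, 6 at an unadjusted p under 0.05, with a median of -1.18 and summed levels of 1517 to 1821 CPM against 506 to 1047 CPM. Their part in the Ltbp values was not tested.

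The Id genes encode inhibitors of basic helix-loop-helix factors and are the usual transcriptional readout of BMP signalling. Id3, the member with the highest mean FPKM, was at 234, 131 and 156 CPM on the control diet and at 125, 140 and 184 CPM on the adenine diet. The groups overlapped, with a log2 fold change of -0.22 ± 0.31 (edgeR adjusted p = 0.781), and without control 1 the value was 0.06. Id1 was at 63.6, 30.5 and 52.9 CPM against 38.5, 29.9 and 34.4 CPM, where control 2 lay among the adenine libraries (log2 fold change -0.52 ± 0.30, edgeR adjusted p = 0.563). Id4 was at 30.6, 35.9 and 20.7 CPM against 20.8, 14.8 and 19.1 CPM, with control 3 just below adenine 1 (log2 fold change -0.67 ± 0.28, edgeR adjusted p = 0.465). Id2 was the positive one of the 4, with a log2 fold change of 0.34 and an edgeR adjusted p of 0.618.

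**Figure D3:**
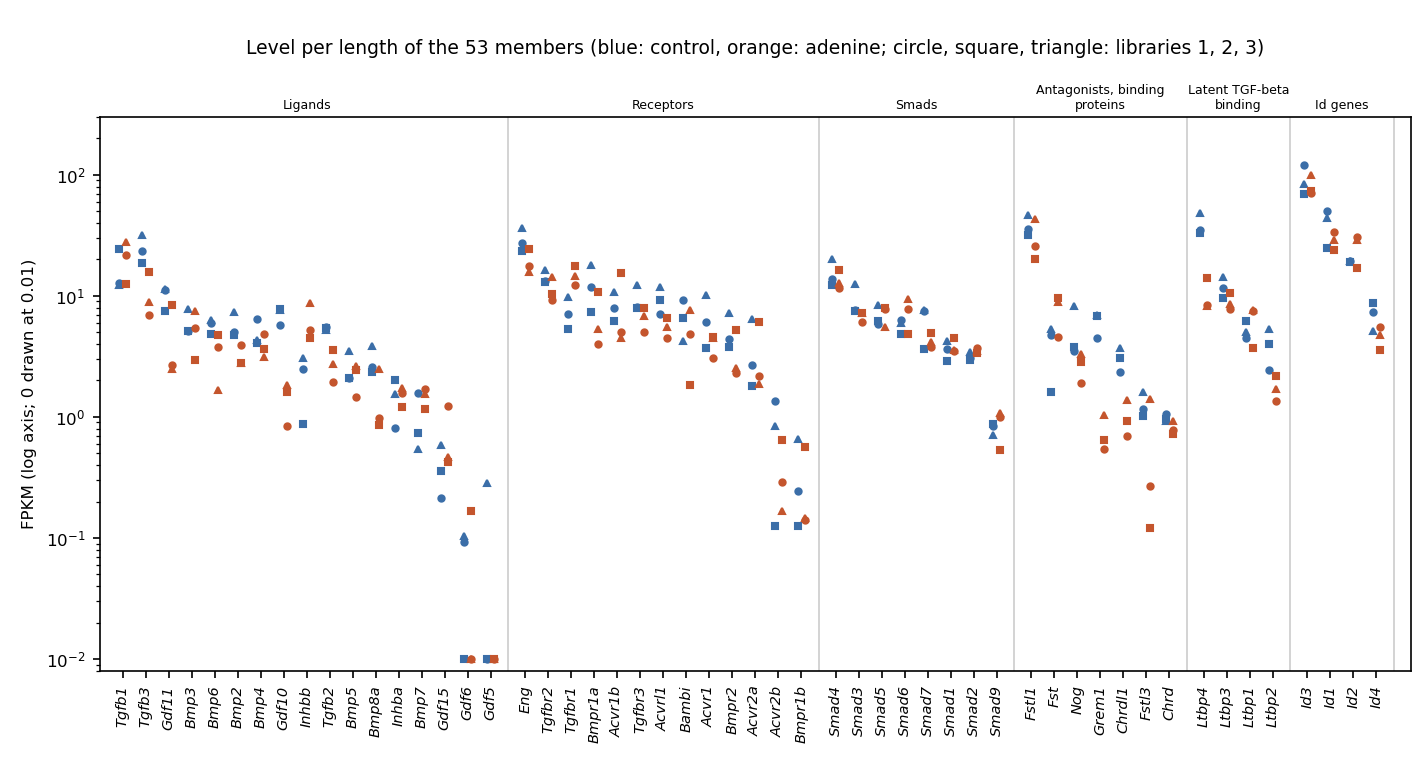
FPKM of all 53 members in each library on a log axis, grouped by role and ordered by mean FPKM within each role (circle, square and triangle for libraries 1, 2 and 3; blue for control, orange for adenine; 0 drawn at 0.01). Id3, at a mean of 86.0 FPKM, is at the top and Gdf5, at 0.05 FPKM, at the bottom, and the groups of Grem1, Gdf10 and Ltbp4 stand apart.

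Compared per length, the order of mean FPKM over the 6 libraries was Id3 at 86.0, Id1 at 34.2, Fstl1 at 33.9, Ltbp4 at 24.6, Eng at 24.2, Id2 at 22.4, Tgfb1 at 18.6, Tgfb3 at 17.5 and Smad4 at 14.5 FPKM. Id3, at 68.8 to 120 FPKM, was above every library of every other member. The later neighbours in this order did not differ beyond their spread: Id1 ran from 24.1 to 50.4 FPKM and Fstl1 from 20.0 to 46.5 FPKM across the libraries. The BMP ligands were lower, with Bmp2 at 4.43 and Bmp4 at 4.39 FPKM. In the control libraries Ltbp4 was at 33.2 to 48.1 FPKM, among the most abundant members, and in the adenine libraries it was at 8.32 to 14.02 FPKM. Grem1 went from 4.51 to 7.01 FPKM in the control libraries to 0.54 to 1.03 FPKM in the adenine libraries.

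Libraries of one diet differed in the level of the whole set. Relative to each gene's mean over the 6 libraries, the median log2 CPM of the tested members was 0.20, -0.03 and 0.51 in control 1 to 3 and -0.44, -0.09 and -0.18 in adenine 1 to 3, while the median of all tested genes was 0.01 to 0.05. Control 3 was the highest library for 26 of the 51 members and adenine 1 the lowest for 21. Control 2 and adenine 2 were the libraries of each diet closest to the other diet, so the separation of the set rested unevenly on its libraries.

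**Figure D4:**
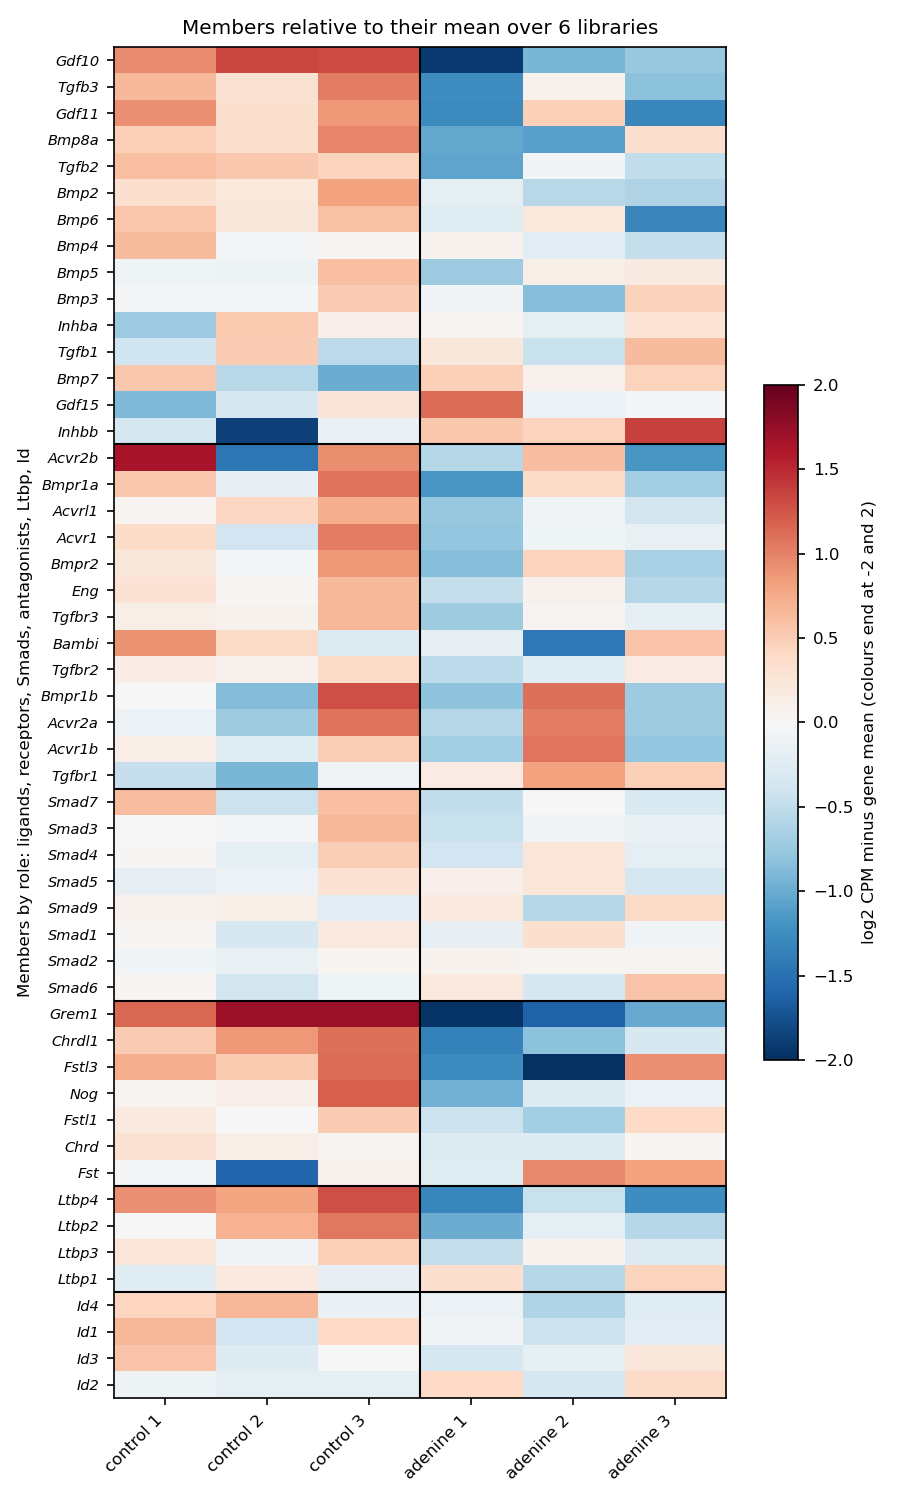
Log2 CPM of each tested member minus its mean over the 6 libraries, by role and then by fold change; red is above and blue below the mean, with colours ending at -2 and 2. Grem1, Gdf10 and Ltbp4 split by diet in all libraries, while many receptors are low in adenine 1 and adenine 3 and not in adenine 2.

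Other genes of the pathways were counted from lists of 115 genes chosen with earlier results of these data known, of which 107 were in the authors' comparison table and 91 were tested. Their median log2 fold change was -0.37; 14 were lower and 8 higher at an unadjusted p under 0.05, which is 15.4% against 6.49% of all tested genes and 8.79% against 4.22%. The authors' deposited table calls Acta2 and Tagln lower and Tgfbi higher. These belong to the 18 TGF-beta response genes, of which 3 were higher and 3 lower at an unadjusted p under 0.05. Acta2, smooth muscle actin, was at 472, 505 and 481 CPM against 189, 176 and 77.7 CPM (log2 fold change -1.72 ± 0.38), and Tagln, transgelin, at 6.81, 5.28 and 6.08 CPM against 0.462, 2.41 and 0.676 CPM (-2.37 ± 0.68). Both are also on the smooth muscle marker list. Tgfbi, a matrix protein named for its induction by TGF-beta, was at 43.7, 81.0 and 50.6 CPM against 188, 90.4 and 223 CPM (log2 fold change 1.52 ± 0.40). Timp1, an inhibitor of matrix metalloproteinases, had a log2 fold change of 1.54 ± 0.49. The groups of these 4 genes did not overlap, so genes usually listed together as TGF-beta responses had differences of both signs.

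Of the 13 tested BMP response genes, 3 were lower and 0 higher at an unadjusted p under 0.05: Hey1, Hey2 and Sost, with log2 fold changes of -1.17, -1.65 and -2.40. Hey1 and Hey2 are also Notch targets, and Sost is also an osteocyte marker that was low in control 3. Zfp423, a cofactor of BMP Smads, had a log2 fold change of -1.30. Among 23 tested extracellular modulators, 3 were lower and 3 higher: the BMP binders Nbl1 and Twsg1 had log2 fold changes of -1.05 and -0.83, and Tsku, tsukushi, and Fbn2, a fibrillin that carries BMPs and TGF-beta, 1.14 and 1.35. Of 24 intracellular regulators, 3 were lower and 2 higher, with the ubiquitin ligases Smurf1 and Smurf2 at -0.67 and -0.58, the antiproliferative factor Tob1 at -1.23 and Tab1, a partner of the kinase TAK1, at 0.63. Of 8 other receptors and coreceptors, 2 were lower and 0 higher, Amhr2 at -2.95 and Lrrc32, which presents latent TGF-beta on cell surfaces, at -1.03. Amhr2 was near the floor, with 25, 64 and 97 reads in control 1 to 3 and 12, 0 and 10 reads in adenine 1 to 3. Its standard error was 1.04. None of the 5 tested other ligands had an unadjusted p under 0.05.

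**Figure D5:**
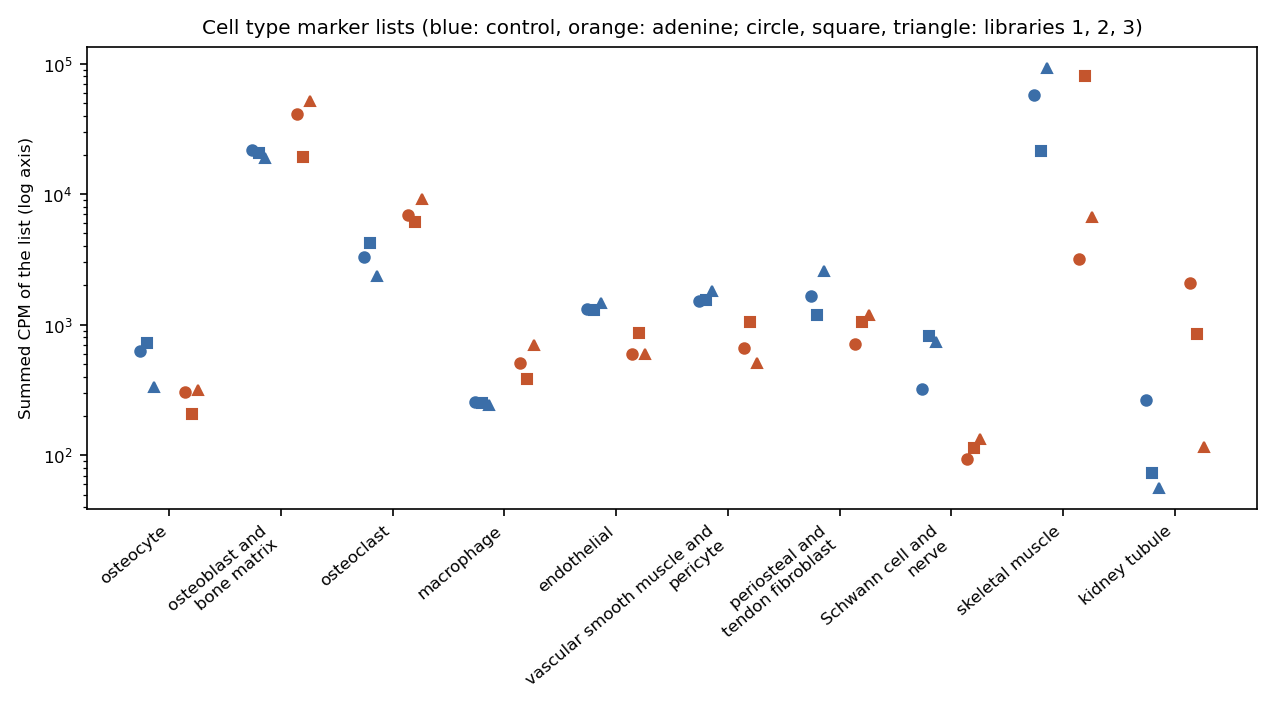
Summed CPM of 10 cell type marker lists in each library on a log axis (circle, square and triangle for libraries 1, 2 and 3; blue for control, orange for adenine). Osteocyte, endothelial, smooth muscle and Schwann cell lists are lower and osteoclast and macrophage lists higher in every adenine library, while the skeletal muscle and kidney lists vary within a diet.

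Bone cell markers also differed between the diets beside the members. Osteoclast markers had 9 of 12 higher and 0 lower at an unadjusted p under 0.05, with a median log2 fold change of 1.58 and summed levels of 2356 to 4219 CPM against 6160 to 9253 CPM. Macrophage markers had 7 of 9 higher and a median of 0.84, at 241 to 254 CPM against 387 to 703 CPM. Osteocyte markers had 7 of 12 lower and a median of -1.15, at 334 to 720 CPM against 205 to 315 CPM. Osteoblast and bone matrix markers had 1 of 12 higher and a median of 0.59, at 19013 to 21968 CPM against 19271 to 51982 CPM, where adenine 2 lay within the control range. These lists were compared as levels, and their part in the values of Tgfbr1, Inhbb, Tgfb1 and Bmp2 was not tested.

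The labels cover preparations with and without strand information, so reads of genes on opposite strands that overlap cannot be told apart here. Of the members, 19 overlap another gene with reads, and for 12 the partner had more than 0.1 times the member's FPKM. Eng, at 24.2 FPKM, overlaps Fpgs, at 4.86 FPKM, and Acvrl1, at 7.44 FPKM, overlaps Gm16031, at 0.97 FPKM. Tgfb2, Bmp4 and Ltbp2 overlap long non-coding RNAs at 0.45, 0.69 and 0.50 FPKM. For Bmp6, which overlaps Txndc5 at 19.6 FPKM, the partner was the more abundant gene. No partner above 0.1 times the member's FPKM was found for Grem1, Gdf10, Chrdl1 or Ltbp4.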

How the data were processed

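Per the labels' protocols, polyA RNA came from the flushed cortex of tibiae. The submitters' processing notes list edgeR 3.22.5, DESeq2 (no version), featureCounts 1.5.0-p3 and HISAT2 2.0.5. Genome build and strand setting: not given in the sources used here. The authors deposited raw counts per gene and library, the same counts as a signal scaled by 1 size factor per library, FPKM per gene, and their own log2 fold changes with p-values and adjusted p-values. The deposited counts were tested here with edgeR 4.0.16 in R 4.3.3: TMM scaling, filterByExpr (minimum count 10), the quasi-likelihood test with robust moderation, diet as the single term, two-sided, Benjamini-Hochberg over all 15609 tested genes, threshold 0.05. CPM values are TMM-scaled, and a standard error is the absolute log2 fold change over the square root of the F statistic. FPKM were used for levels between genes. A DESeq2 1.42.0 fit of the deposited counts made the same 361 calls as the authors' deposited table. The procedure was run on simulated counts, with a pass set only on the median fold change at a dispersion below that of these data. How many changed genes it recovers at the dispersion of these data is not given here.

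The members and lists were chosen with earlier results of these data known. Named with values in every library were members with an unadjusted p under 0.05, members called in the authors' deposited table, the member with the highest mean FPKM of each role, and Bmp2, Bmp4, Tgfb1, Inhba, Nog, Grem1, Smad6, Smad7, Id1 and Id3 whatever their result; of each list of other pathway genes, up to 4 were named by smallest p. A few values of single genes are not reported here, though the genes stay in the counts. Promoters came from RefSeq (GRCm38.p6). A GRCm38 annotation matched the files' start and end for 2.83% of 52073 shared genes, so gene coordinates are in the files' build and are not mixed with those of promoters.

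The alternatives tried were the DESeq2 Wald test, DESeq2 size factors in edgeR, limma 3.58.1 on log2(FPKM + 1) and log2(FPKM + 0.1) where the mean FPKM reached 1, no filter, a minimum count of 50, no robust moderation, the replicate number as a block, the muscle or kidney marker level as a covariate, haemoglobin, mitochondrial and muscle genes left out, each library left out, and control 3 and adenine 1 left out together.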

Additional observations from a re-analysis of the deposited data

How the results depend on the processing

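Over all genes, the calls were 361 with the DESeq2 Wald test (4 of them members), 66 with no filter on low counts (3 members), 1 with limma on log2(FPKM + 1) and 1 on log2(FPKM + 0.1), and 0 to 334 with each library left out, where the 334 came without adenine 2. The count of members higher at an unadjusted p under 0.05 was 4 with the muscle level as a covariate and 1 to 3 with each library left out. The count of lower members was 6 without control 3 and adenine 1 together, 6 with the kidney level as a covariate, and 8 to 16 with each library left out. Shares of all genes in each alternative are not given here, so these counts of members cannot be set against a background. The median log2 fold change of the members was -0.17 without control 3 and adenine 1 together, -0.27 with the muscle level as a covariate, -0.27 with the kidney level, and -0.55 to -0.33 with each library left out. Under the other alternatives the counts of members stayed within 1.5 times their value in the report and the median was -0.45 to -0.39. The cause of these shifts was not tested. Of 414 values of the 23 named members under the alternatives, 395 kept their sign; the 19 that changed it belonged to Inhba, Tgfb1, Smad4 and Id3, whose values are near 0. Inhba was 0.011 with DESeq2 size factors, 0.0076 with the Wald test, 0.054 and 0.11 with limma at pseudocounts of 1 and 0.1, 0.0013 with a minimum count of 50, 0.24 with the kidney level, 0.032 without control 3 and adenine 1, 0.028 with haemoglobin, mitochondrial and muscle genes left out, and -0.27 to 0.31 with each library left out. Tgfb1 was -0.25 with the muscle level and -0.021 to 0.66 with each library left out. Smad4 was 0.11 with the muscle level, 0.12 without control 3 and adenine 1, and -0.43 to 0.0031 with each library left out, and Id3 was -0.40 to 0.059. Among other named members, none of them called, Bmp4 was -0.16 without control 1, Fstl1 was -0.81 without adenine 3, -0.22 without adenine 2 and -0.26 without control 3, Smad6 was 0.07 without adenine 3, 0.51 without adenine 2 and 0.21 without control 2, Id1 was -0.28 without control 1, and Nog was -0.50 without control 3. With the replicate number as a block (replicate block), 10 members were lower and 2 higher, the median was -0.44, 0 genes were called and Inhba was 0.076; same-numbered libraries did not deviate together (correlations -0.04, -0.45 and -0.17), so the numbers were not taken as pairs. There were 3 libraries per diet and the biological coefficient of variation was 0.439; the smallest difference this design can detect was not estimated.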
